A study of Homo sapiens with 4 samples.

Results

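Genes that copy DNA and supply its building blocks were described in 2 human breast cancer cell lines in which TMEM126A had been lowered or raised. The set comprised 39 of the 39261 genes in the deposited tables, taken by symbol as the licensing, helicase, polymerase, clamp and nucleotide synthesis genes together with E2F1. MDA-MB-231, a line of mesenchymal character from a triple-negative tumour, was grown in L15 medium with fetal bovine serum and carried either a TMEM126A knockdown construct or a control vector (an sh-NC construct). Ca1a (MCF10-Ca1a), a malignant derivative of the MCF10A breast epithelial series, was grown in DMEM/F12 with horse serum, insulin, EGF, cholera toxin and hydrocortisone and held either a construct for TMEM126A overexpression or its control vector (pCDH). All constructs were brought in by lentivirus, the controls included, and all cells were of the same labelled range of passages. Total RNA was sequenced from 1 library per group, 4 libraries in all, so each comparison below has no replicate check. Whether a group stems from 1 clone or a pool is not given by the labels.

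Depth was 20673373 to 21405193 reads per library. TMEM126A, a gene for an inner mitochondrial membrane protein, followed the labels: it stood at 22.9 normalized counts in the knockdown library against 559 in its control, 24.5-fold lower (16.1 to 38.9), and at 9381 in the overexpression library against 265 in its control, 35.4-fold higher (31.3 to 40.1). A normalized count is a read count divided by the size factor of its library. For both Ca1a libraries it is the whole read count as deposited, at 1 normalized count per read. Each bracket is an exact 95% interval for counting error alone. Epithelial markers summed to 390 to 472 FPKM (fragments per kilobase, scaled to library depth) in the MDA-MB-231 libraries and 2055 to 2288 in the Ca1a libraries, although KRT19 went the other way, at 163 to 220.4 FPKM in MDA-MB-231 and 1.04 to 1.61 in Ca1a. Mesenchymal markers summed to 759 to 770 FPKM in MDA-MB-231 and 76.3 to 91.9 in Ca1a. VIM alone made up 707.5 to 721.4 and 74.8 to 90.5 FPKM of these sums. Of the 5 mesenchymal markers 2, CDH2 and SPARC, stayed under 2 FPKM in every library. Of 12 fibroblast, immune, endothelial and adipocyte markers, 11 stayed under 2 FPKM in every library, and the exception was CD68 with up to 98.6 FPKM.

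Before a cell copies its DNA, the origin recognition complex with CDC6 and CDT1 loads the ring of MCM2 to MCM7 onto origins, a step called licensing. At the start of S phase CDC45 and the GINS complex turn that ring into the active helicase, primase and polymerases alpha, delta and epsilon lay down DNA, and the PCNA clamp with its RFC loader keeps the polymerases on the template. Ribonucleotide reductase, thymidylate synthase, thymidine kinase and dUTPase keep up the supply of deoxynucleotides. Many of these genes are switched on together before S phase by E2F transcription factors, and their transcripts are commonly read as a measure of how many cells in a culture are cycling.

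E2F motif letters were found in the promoters of 19 of the genes. RefSeq windows of 300 bases (250 before to 50 after a gene's start, GRCh38.p14) were searched on both strands for 4 forms of the E2F motif, TTTGGCGC, TTTCCCGC, TTTGCCGC and TTTCGCGC. A window was found for 34 of the 39 genes, all but MCM4, MCM5, GINS4, POLD3 and RPA2. A motif was present in 19 of the 34 (55.9%), against 3.99% of all 27305 genes with a window and 3.31% of all 35116 windows. These backgrounds include genes with too few reads in these cells to be compared below. Among genes outside the set with enough reads in the MDA-MB-231 libraries, 608 held a motif and 8923 did not. With the 250 bases before the start alone, the count was 14 of 34 against 3.40% of genes. CCAAT, the core of the NF-Y motif, was present in 20 of 34 (58.8%) against 39.7% of genes. By role the E2F motif was present in 6 of 9 licensing genes, 3 of 4 helicase activation genes, 4 of 7 polymerase and primase genes, 3 of 8 clamp, loader, single-strand binding and flap genes, 2 of 5 nucleotide supply genes, and E2F1 itself. MCM10 is counted with the licensing genes here and below, although it helps to start the helicase. A match is a description of letters, not of a bound site.

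The 5 promoters shown belong to the genes with a motif and the largest ratio in either comparison, by a rule that left out 1 chromosome. Each is written 5′ to 3′ on the gene's strand, with the motif in capitals (where the motif lies on the opposite strand its reverse complement is seen). In TYMS (chr18:657603-657632, plus strand), GINS2 (chr16:85688967-85688996, minus strand) and LIG1 (chr19:48170440-48170469, minus strand) the motif lies inside an exon of some transcript in GENCODE release 29, and its first base is 39, 31 and 114 bases before the RefSeq start. In PCNA (chr20:5126627-5126772, minus strand) and POLA1 (chrX:24693768-24693917, plus strand) it lies 59 and 137 bases before the start, outside any annotated exon.
TYMS: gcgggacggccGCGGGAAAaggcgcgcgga
GINS2: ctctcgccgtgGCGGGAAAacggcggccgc
LIG1: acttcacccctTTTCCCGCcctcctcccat
PCNA: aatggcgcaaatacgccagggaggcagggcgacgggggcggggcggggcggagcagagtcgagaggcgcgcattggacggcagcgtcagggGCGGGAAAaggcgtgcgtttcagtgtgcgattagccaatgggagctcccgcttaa
POLA1: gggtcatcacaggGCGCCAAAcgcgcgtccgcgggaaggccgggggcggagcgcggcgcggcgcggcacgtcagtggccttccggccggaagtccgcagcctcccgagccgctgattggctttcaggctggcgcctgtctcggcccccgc

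**Figure D1:**
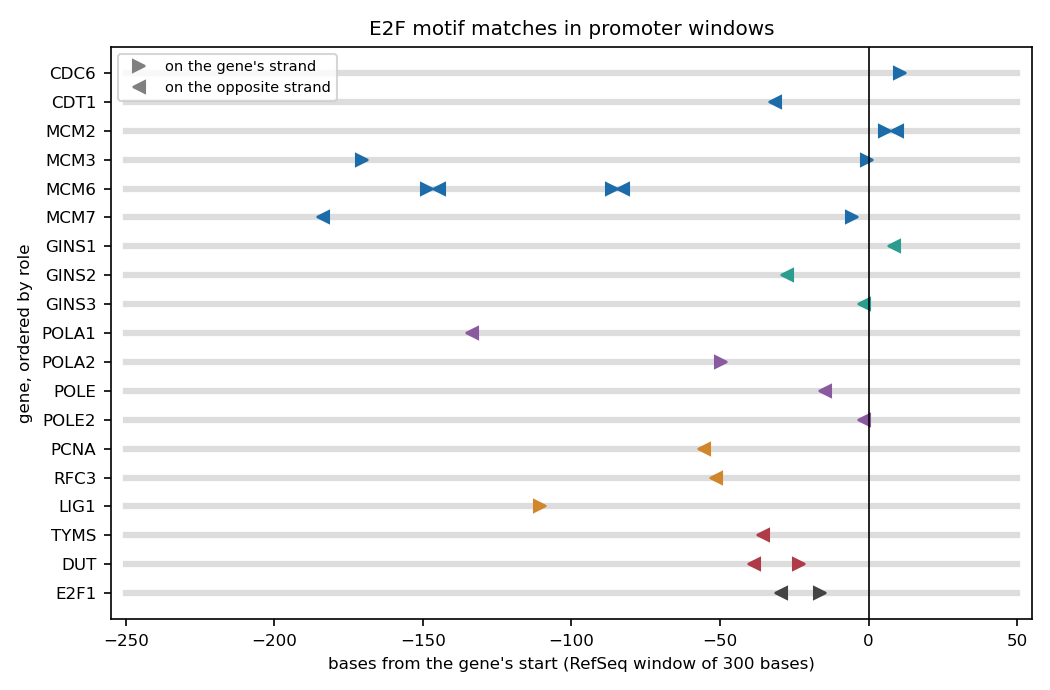
Position of each E2F motif match in the promoter windows of the 19 genes that have one, in bases from the RefSeq gene start (horizontal axis); grey bars are the 300-base windows and triangles point right for the gene's strand and left for the opposite strand. MCM6 holds 4 matches, in 2 overlapping pairs, and most other genes hold 1.

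In MDA-MB-231 the replication genes differed little between knockdown and control. All 39 reached the mean of 20 normalized counts set for a comparison; 4 were higher beyond counting error (the interval leaves out 1), 5 were lower, and 30 were within it. The background was as large: 16.8% of all 13292 genes compared were higher and 11.3% lower, and among the 8466 genes whose mean fell in the range of the replication genes the shares were 19.1% and 13.9%, against 10.3% and 12.8% of the 39. No replication gene was 1.2-fold or more away from its control beyond counting error, a size that 5.33% of all genes passed upward and 3.39% downward. Their ratios ran from 0.899 to 1.1, with a median log2 ratio of -0.02 against 0.01 over all genes compared. In a bulk culture, fewer cells in S phase and less of these transcripts per cell cannot be told apart.

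Among the licensing genes, 1 was higher (CDC6), 2 were lower (MCM6 and MCM7) and 8 were within counting error. ORC6, a subunit of the origin recognition complex, stood at 596 normalized counts after knockdown and 659 in the control, at a ratio of 0.905 (0.809 to 1.01). CDT1, which brings the MCM ring to the origin, stood at 761 and 839, a ratio of 0.907 (0.821 to 1.002). Both gaps lay within counting error as deposited, and ORC6 was lower beyond it when scaled by total reads. CDC6, the ATPase that works beside CDT1, stood at 2323 and 2173 and was 1.07-fold higher (1.01 to 1.13). MCM7 stood at 7490 and 7849, 1.05-fold lower (1.02 to 1.08), and MCM6 at 2177 and 2317, 1.06-fold lower (1.004 to 1.13). The other 4 genes of the ring had ratios of 0.978 to 1.01. The CDC6 call was lost when the libraries were scaled by total reads (1.04), TMM (1.06) or the median gene (1.06), while CDT1 was then lower beyond counting error (0.887, 0.899 and 0.899). Over the 6 ring genes the median log2 ratio was -0.03.

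The 5 helicase activation genes all lay within counting error. GINS3, a subunit of the GINS complex, stood at 336 normalized counts after knockdown and 363 in the control, at a ratio of 0.925 (0.795 to 1.08). GINS2 stood at 404 and 429, a ratio of 0.944 (0.822 to 1.08). CDC45, which joins the ring to GINS, stood at 954 and 908, a ratio of 1.05 (0.959 to 1.15). These genes had 335.9 to 1045 normalized counts, so their intervals were wider than those of the MCM genes.

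The polymerase epsilon subunits lay on opposite sides of their controls. POLE, the catalytic subunit of the leading-strand polymerase, stood at 3494 normalized counts after knockdown and 3885 in the control, 1.11-fold lower (1.06 to 1.16). POLE2, its second subunit, stood at 1220 and 1111, 1.1-fold higher (1.01 to 1.19). These were the lowest and the highest ratio of the 39 genes, and the POLE2 call was lost when scaled by total reads (1.07). The other 6 polymerase and primase genes lay within counting error, with ratios of 0.943 to 0.996, all under 1. Of all genes compared, 46.1% had a ratio under 1.

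Of the 9 clamp, loader, single-strand binding and flap genes, 2 were higher and none was lower. FEN1, the nuclease that trims flaps from Okazaki fragments, stood at 3924 normalized counts after knockdown and 3624 in the control, 1.08-fold higher (1.03 to 1.13). RPA1, the large subunit of the single-strand binding protein, stood at 4321 and 4022, 1.07-fold higher (1.03 to 1.12). The clamp itself, PCNA, stood at 3725 and 3835, a ratio of 0.971 (0.928 to 1.02).

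Of the 5 nucleotide supply genes of the set, TYMS, thymidylate synthase, alone lay beyond counting error. It stood at 2768 normalized counts after knockdown and 3024 in the control, 1.09-fold lower (1.04 to 1.15). TK1, the thymidine salvage kinase, stood at 2527 and 2425, a ratio of 1.04 (0.985 to 1.1). E2F1 stood at 2207 and 2342 and was 1.06-fold lower (1.001 to 1.13), with an upper bound for its ratio of 0.999. RRM1, RRM2 and DUT had ratios of 0.975 to 1.04, all within counting error.

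In Ca1a the replication genes as a group stood higher in the overexpression library. Of the 39, 13 were higher beyond counting error, 2 were lower and 24 were within it. A ratio above 1 was found for 28 of the 39 (71.8%), against 51.5% of all genes compared. Over all 12111 genes compared, 18.1% were higher and 16.2% lower, and among the 9189 genes in the count range of the replication genes the shares were 17.5% and 15.6%, against 33.3% and 5.13% of the 39. At 1.2-fold or more, 7 were higher and none was lower, where 5.76% of all genes passed upward and 5.94% downward. No ratio reached 1.5-fold: the range was 0.837 to 1.35. The median log2 ratio was 0.10 against 0.01 over all genes compared. Mitosis genes, a list of 22 for later cell cycle steps, had a median of 0.02 with 6 higher, 2 lower and 14 within.

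**Figure D2:**
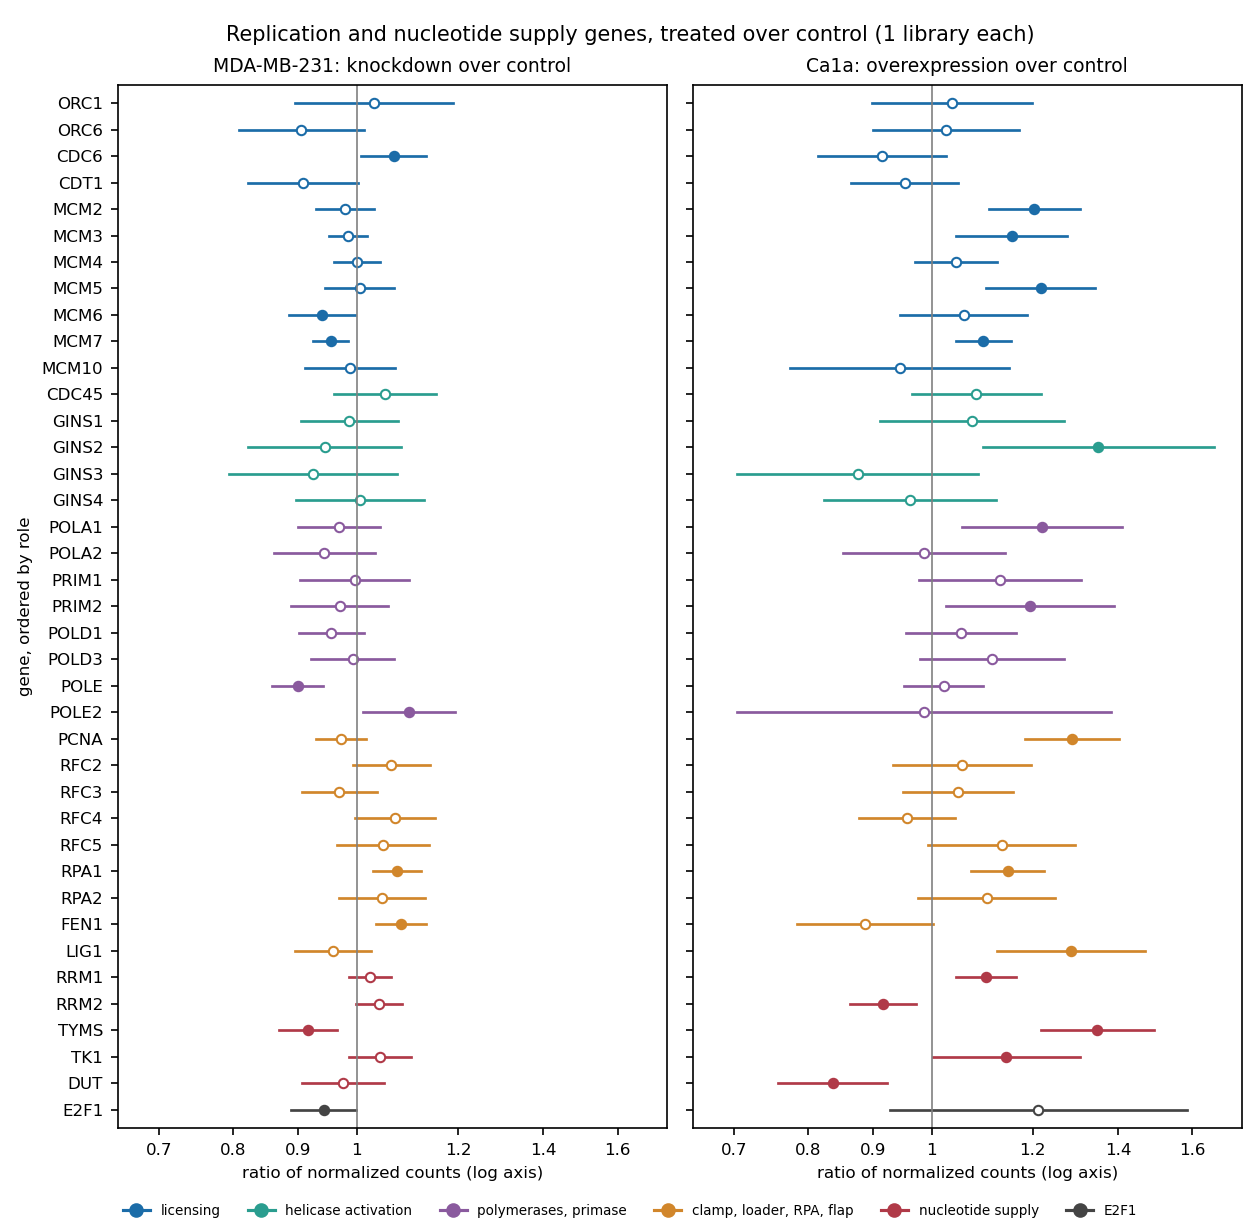
Ratio of normalized counts, treated over control, for each of the 39 genes (log axis) in MDA-MB-231 (left) and Ca1a (right); points are ratios from 1 library a group, lines are 95% counting intervals, and filled points are those whose interval leaves out 1. In MDA-MB-231 every ratio lies between 0.899 and 1.1, and in Ca1a 28 of 39 lie above 1, against 51.5% of all genes compared.

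**Figure D3:**
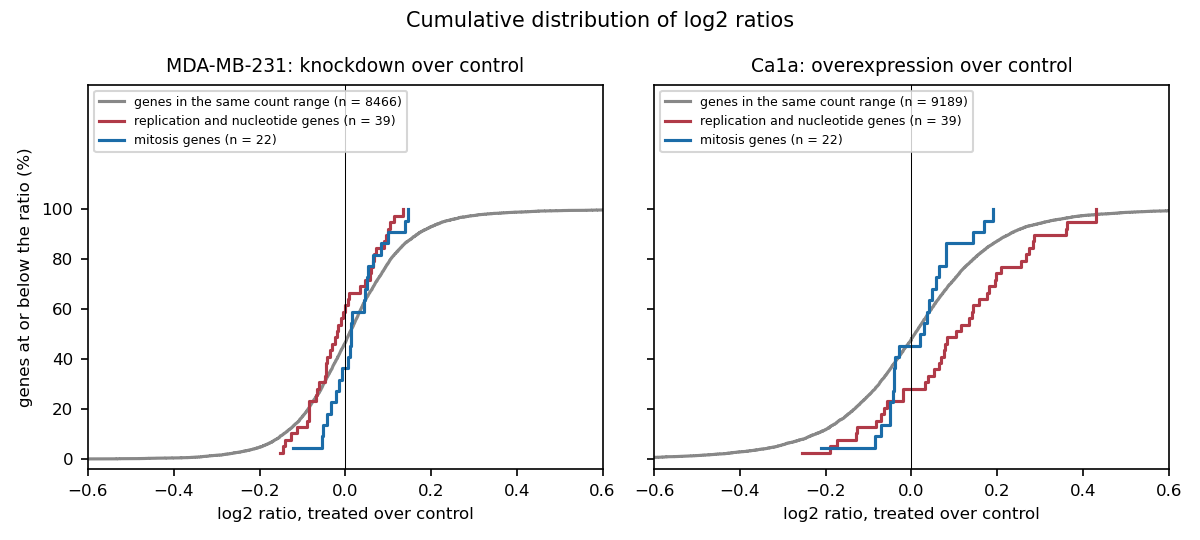
Cumulative share of genes (percent) at or below each log2 ratio, for the 39 replication genes, the 22 mitosis genes and all genes in the count range of the replication genes. In Ca1a the median of the replication genes is 0.10 against 0.02 for mitosis genes, and below a log2 ratio of 0 the replication and mitosis curves cross; in MDA-MB-231 its median is -0.02.

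All 6 genes of the MCM ring had a ratio above 1 in Ca1a, 4 of them beyond counting error, with a median log2 ratio of 0.17. Of all genes compared, 51.5% had a ratio above 1 and 18.1% were higher beyond counting error. MCM5 stood at 902 normalized counts with overexpression and 741 in the control, 1.22-fold higher (1.1 to 1.34). MCM2 stood at 1277 and 1061, 1.2-fold higher (1.11 to 1.31). MCM3 stood at 848 and 734, 1.16-fold higher (1.05 to 1.28), and MCM7, the most abundant of the ring, at 3368 and 3067, 1.1-fold higher (1.05 to 1.15). The genes that load the ring, ORC1, ORC6, CDC6 and CDT1, had ratios of 0.915 to 1.04, all within counting error, as were MCM4, MCM6 and MCM10.

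Among helicase activation genes, GINS2 and GINS3, subunits of one complex, had ratios on opposite sides of 1. GINS2 stood at 220 normalized counts with overexpression and 163 in the control, 1.35-fold higher (1.1 to 1.66). GINS3 stood at 162 and 185, a ratio of 0.876 (0.705 to 1.09), within counting error. GINS2 and TYMS had the largest ratios of the 39 genes, and GINS2 also had one of the lowest counts. CDC45, GINS1 and GINS4 lay within counting error.

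POLA1, the catalytic subunit of polymerase alpha, stood at 422 normalized counts with overexpression and 346 in the control, 1.22-fold higher (1.06 to 1.41). PRIM2, the large primase subunit of the same complex, stood at 381 and 319, 1.19-fold higher (1.03 to 1.39). The other 2 genes of that complex were within counting error: PRIM1, the small primase subunit, had a ratio of 1.13 (0.977 to 1.31) and POLA2 of 0.987 (0.852 to 1.14). POLD1, POLD3, POLE and POLE2 of the delta and epsilon polymerases were within counting error, with ratios of 0.986 to 1.12; the delta subunits POLD2 and POLD4, outside the set of 39, were not: POLD2 was 1.05-fold higher (1.01 to 1.1) and POLD4 1.32-fold lower (1.24 to 1.41). POLE2 had 73 reads with overexpression and 74 in the control, yet 0.959 and 0.680 FPKM, a FPKM ratio of 1.41 that lay outside the counting interval of its reads (0.704 to 1.38). It was the one gene of the 39 for which the deposited FPKM and counts disagreed by that much.

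PCNA, the sliding clamp, stood at 1246 normalized counts with overexpression and 968 in the control, 1.29-fold higher (1.18 to 1.4). LIG1, the ligase that joins Okazaki fragments, stood at 514 and 400, 1.29-fold higher (1.13 to 1.47). RPA1 stood at 1941 and 1692, 1.15-fold higher (1.07 to 1.23). The flap nuclease FEN1, which acts before LIG1 on the lagging strand, stood at 501 and 565, a ratio of 0.887 (0.785 to 1.002), within counting error as deposited and lower beyond it when scaled by total reads (0.884), TMM (0.880) or the median gene (0.882). RFC2 to RFC5 of the clamp loader and RPA2 were within counting error, with ratios of 0.957 to 1.13. RFC1, the large loader subunit and outside the set of 39, was 1.11-fold lower (1.06 to 1.17) at 2890 against 3221.

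All 5 nucleotide supply genes of the set lay beyond counting error in Ca1a, 3 upward and 2 downward. TYMS, which makes dTMP from dUMP, stood at 894 normalized counts with overexpression and 663 in the control, 1.35-fold higher (1.22 to 1.49). DUT, the dUTPase that makes dUMP, stood at 745 and 890, 1.19-fold lower (1.08 to 1.32). RRM1, the large subunit of ribonucleotide reductase, stood at 2815 and 2551, 1.1-fold higher (1.05 to 1.16). RRM2, the small subunit, stood at 2081 and 2271, 1.09-fold lower (1.03 to 1.16). The FPKM of RRM2 over RRM1 was thereby 1.13 with overexpression and 1.33 in the control, while in MDA-MB-231 it was 1.24 in both libraries. TK1 stood at 484 and 423, 1.14-fold higher (1.002 to 1.31), and this call was lost when the libraries were scaled by total reads, by TMM or by the median gene. E2F1 stood at 126 and 104, a ratio of 1.21 (0.927 to 1.59), within counting error.

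The comparisons share no control library, and their values are set side by side here. They differ in cell line, medium and vector as well as in the change to TMEM126A. The part of each in a difference of direction was not tested. MCM7 and TYMS were lower in the knockdown library and higher in the overexpression library, the 2 genes of the 39 with calls in opposite directions. RPA1 was higher in both, and 18 genes were within counting error in both. These joint calls were not counted over all genes, so it is not known whether 2 of 39, or 18 of 39, differs from the background. Taken singly, 13.9% of genes in the count range were lower after knockdown, and 17.5% were higher with overexpression. For MCM7 the log2 ratios differed by 0.20 and for TYMS by 0.56, and neither difference can be tested with 1 library a group. TYMS shares 967 exon bases with ENOSF1, a gene on the opposite strand, and the labels do not say whether counting used strand. ENOSF1 stood at 606 normalized counts after knockdown and 794 in the control, 1.31-fold lower (1.18 to 1.46), and at 861 and 761 in Ca1a, 1.13-fold higher (1.03 to 1.25), the same directions as TYMS; its part in the TYMS values was not tested. MCM7 shares 392 exon bases with AP4M1 on the opposite strand, whose ratios of 0.882 (0.774 to 1.01) and 1.21 (0.951 to 1.54) were within counting error. In all, 18 of the 39 genes share exon bases with another annotated gene.

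The authors' deposited table gave none of the 39 genes a p-value under 0.05 in the knockdown comparison, where the smallest was 0.192 for POLE. In the overexpression comparison the authors' deposited table gave 2 such genes, the smallest being 0.0107 for TYMS with an adjusted value of 0.848. Of all genes with a p-value, 805 of 21619 were under 0.05 in the knockdown comparison and 678 of 18801 in the overexpression comparison. No replication gene had an adjusted p-value under 0.05 in the authors' deposited table, against 50 genes of all in the knockdown and 24 in the overexpression comparison.

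Genes with and without an E2F motif in their promoter window (the sequences given above) were set side by side, a split chosen after values had been seen. In MDA-MB-231, 17 of the 19 replication genes with a motif had a ratio under 1, the exceptions being CDC6 and POLE2, and 5 of the 15 without a motif did. The median log2 ratios were -0.06 and 0.06, and all 5 genes that were lower beyond counting error carried a motif. Outside the replication set the gap was smaller in size and in the same direction: 312 of 608 compared genes with a motif (51.3%) had a ratio under 1, with a median of -0.0043, and 4049 of 8923 without (45.4%), with a median of 0.01. None of these differences was tested. In Ca1a the medians were 0.10 with and 0.08 without a motif, and 6 of the 19 genes with a motif were at least 1.2-fold higher against 0 of the 15 without. Outside the set the share at least 1.2-fold higher was 3.8% of 579 genes with a motif and 5.36% of 8209 without, with medians of 0.02 and 0.01.

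Further genes of the same pathways were taken from 6 other replication lists and the mitosis list, 99 genes in all. In the knockdown comparison 98 of these were compared, and 15 were higher (15.3%), 15 lower (15.3%) and 68 within. Over all genes compared, 16.8% were higher and 11.3% lower. The median log2 ratio of the 98 was 0.0046, and it was below 0 under 4 alternative settings. The origin gene ORC2 was 1.2-fold lower (1.09 to 1.32) at 822 against 988 normalized counts. CHTF18, a subunit of the alternative clamp loader, was 1.25-fold lower (1.15 to 1.35) at 1061 against 1322. DCK, which salvages deoxycytidine, was 1.13-fold lower (1.06 to 1.21), and SAMHD1, which breaks down deoxynucleoside triphosphates, was 1.12-fold higher (1.06 to 1.18). The histone chaperone gene CHAF1B was 1.14-fold lower (1.04 to 1.27), the firing factor gene MTBP 1.15-fold lower (1.04 to 1.27) and the repressive factor gene E2F7 1.15-fold lower (1.1 to 1.2). Of the mitosis genes 6 were higher (27.3%) and 2 lower (9.09%). Among them CCNB1, the cyclin B1 gene, was 1.11-fold higher (1.07 to 1.15) and CCNA2, the cyclin A2 gene, 1.1-fold higher (1.06 to 1.15).

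In the overexpression comparison 97 of the 99 were compared, and 23 were higher (23.7%), 7 lower (7.22%) and 67 within. Over all genes compared, 18.1% were higher and 16.2% lower. The median log2 ratio of the 97 was 0.03 (-0.012 by FPKM). Without the mitosis genes 75 were compared, with 17 higher (22.7%), 5 lower (6.67%) and a median of 0.03. At 1.2-fold or more 3 of the 75 were higher (4%) and 2 lower, where 5.76% of all genes passed upward and 5.94% downward. The larger upward share in the set of 39 was thus not seen in these further genes at 1.2-fold. RPA3, the small subunit of the single-strand binding protein, was 1.48-fold higher (1.27 to 1.73) at 409 against 276 normalized counts, more than RPA1 or any other replication gene compared. POLD4, the small subunit of polymerase delta, was 1.32-fold lower (1.24 to 1.41) at 1704 against 2250. TIMELESS, a fork protection gene, was 1.21-fold higher (1.07 to 1.36), and GMNN, whose product geminin holds CDT1 in check, was 1.16-fold higher (1.02 to 1.31). SHMT1, a folate cycle enzyme gene, was 1.2-fold higher (1.14 to 1.26) at 3563 against 2972, and in MDA-MB-231 it had a ratio of 0.997 (0.90 to 1.1). E2F7 was 1.24-fold lower (1.17 to 1.31), the same direction as in the knockdown comparison. None of the 5 chromatin copying genes lay beyond counting error. Left out for low counts were E2F2, listed at 0 in every library, and in Ca1a E2F8, with 21 and 12 reads.

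The largest differences lay between the cell lines, not between treated and control. In the control libraries 31 of the 39 genes were at least 2-fold higher in MDA-MB-231 than in Ca1a by FPKM and none was 2-fold lower. Of all 15344 genes above 0 in both controls, 29.3% were at least 2-fold higher in MDA-MB-231 and 14.2% at least 2-fold lower; among the 9658 genes at 1 FPKM or more in both, 18.4% were at least 2-fold higher. The median of the 39 was 2.79-fold (log2 1.48), against 1.25-fold (log2 0.32) over all genes. All genes but CDT1, 38 of 39, had both MDA-MB-231 libraries above both Ca1a libraries, as did 53.8% of the 15344 genes. The lines differ in origin, medium and vector and each has 1 control library, so these cannot be told apart.

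**Figure D4:**
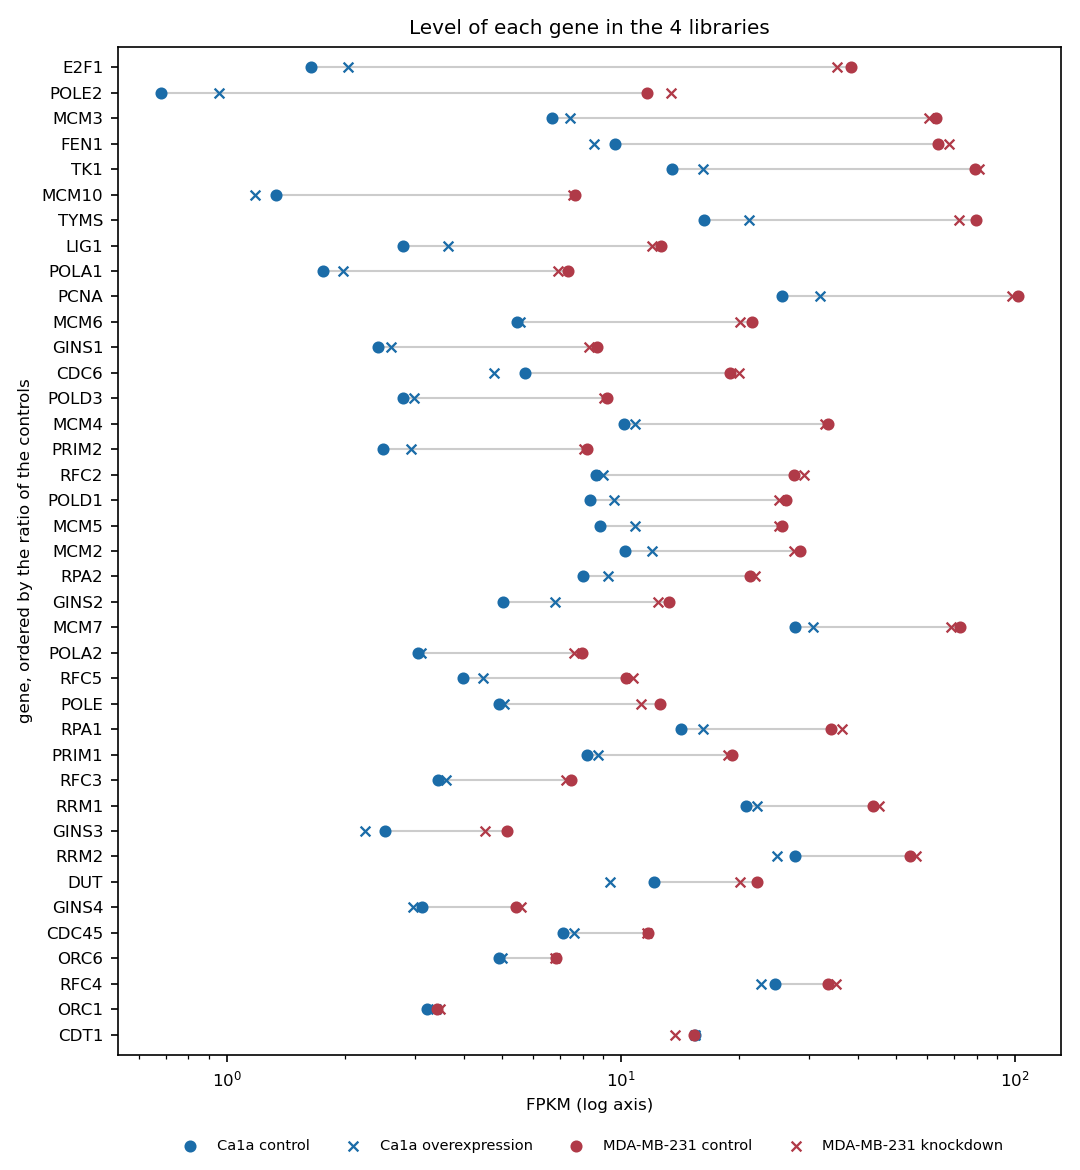
FPKM of the 39 genes in the 4 libraries (log axis), ordered by the ratio of the controls; circles are controls, crosses are knockdown (red) or overexpression (blue). The treated and control libraries of a line lie close together, and the gap between the lines runs from none in CDT1 to 23.5-fold in E2F1.

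E2F1 had the largest gap, with 38.5 FPKM in the MDA-MB-231 control and 1.64 in the Ca1a control, 23.5-fold; its reads, scaled by library total, gave 23.1-fold (18.9 to 28.3). POLE2 came next with 11.6 and 0.680 FPKM, 17.1-fold, and 15.4-fold by reads (12.1 to 19.7). MCM3 had 63.2 and 6.68 FPKM, 9.46-fold, and FEN1 63.9 and 9.70, 6.59-fold. TK1 had 79.2 and 13.5 FPKM, 5.85-fold, and MCM10, which helps to start the helicase, 7.68 and 1.33, 5.76-fold. TYMS had 79.5 and 16.3 FPKM, 4.88-fold, and PCNA 102 and 25.6, 3.98-fold. At the other end CDT1 had 15.4 FPKM in both, with a read ratio of 0.992 (0.901 to 1.09), and ORC1 had 3.42 and 3.22. The 8 genes under 2-fold were CDT1, ORC1, ORC6, RFC4, CDC45, GINS4, DUT and RRM2.

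The difference was not a uniform scaling of each complex. MCM3 stood at 2.46 times the FPKM of MCM5 in the MDA-MB-231 control and at 0.755 times in the Ca1a control, although both proteins sit in one ring. POLE2 stood at 0.925 times POLE in MDA-MB-231 and 0.139 times in Ca1a. CDT1 stood at 0.810 times CDC6 in MDA-MB-231 and 2.70 times in Ca1a. RRM2 over RRM1, at 1.24 and 1.33, and PRIM1 over PRIM2, at 2.33 and 3.30, differed less. By role the median ratio of the lines was 2.90-fold for licensing, 2.04-fold for helicase activation, 3.21-fold for polymerases and primase, 2.65-fold for the clamp group and 2.11-fold for nucleotide supply. All 8 polymerase and primase genes passed 2-fold by FPKM. Divided by the median ratio of all genes, PRIM1 was at 1.86-fold and the others stayed above 2-fold.

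The order of levels within a line differed too. PCNA, TYMS and TK1 had the highest FPKM of the 39 in the MDA-MB-231 control, and RRM2, MCM7 and PCNA in the Ca1a control. ORC1 was the lowest in the former at 3.42 FPKM and POLE2 in the latter at 0.680. Mitosis genes showed a smaller gap between the lines than the replication genes, with a median of 1.3-fold and 4 of 22 at least 2-fold higher in MDA-MB-231. Replication genes with an E2F motif had a median of 3.32-fold and those without 2.40-fold, while outside the set 635 genes with a motif had a median of 1.27-fold and 9697 without 1.25-fold.

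**Figure D5:**
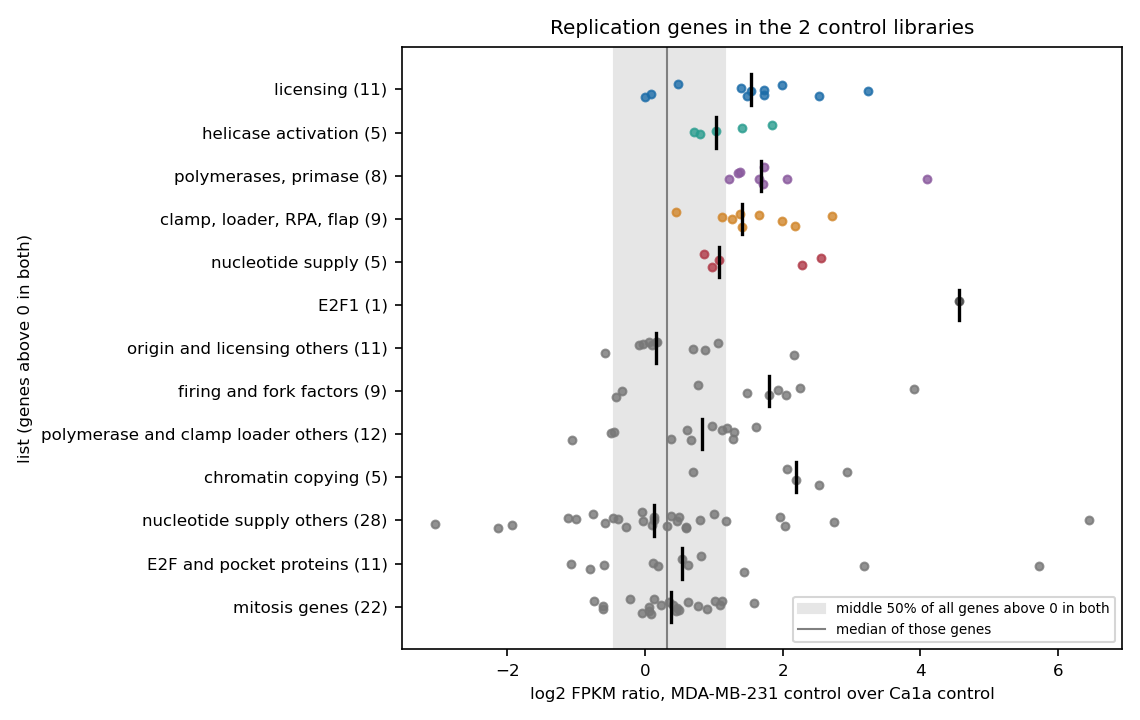
Log2 ratio of FPKM, MDA-MB-231 control over Ca1a control, for each gene (points) by role and for the other lists, with the median of each list as a bar, the median of all genes as a grey line and their middle 50% as a grey band. Medians of the 5 multi-gene roles lie at 1.03 to 1.68 and the mitosis median at 0.38, against 0.32 for all genes.

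Among the other lists, chromatin copying genes had a median of 4.58-fold between the controls and firing and fork factors 3.49-fold, while the remaining origin and licensing genes had 1.12-fold and the remaining nucleotide supply genes 1.1-fold. E2F8, a repressive member of the E2F family, had 4.22 FPKM in the MDA-MB-231 control and 0.0797 in the Ca1a control, and CLSPN, the claspin gene of the fork checkpoint, was 15.0-fold higher in MDA-MB-231. SAMHD1 had 18.2 and 0.209 FPKM, 87.5-fold. The Ca1a control held 12 reads for E2F8, 76 for CLSPN and 35 for SAMHD1, so these gaps rest on few reads and carry no interval here. Some nucleotide genes went the other way: MTHFD2, a mitochondrial folate enzyme gene, had 24.4 and 202 FPKM, 8.27-fold higher in Ca1a, RRM2B, the p53-responsive reductase subunit, was 4.37-fold higher in Ca1a, and SHMT1 3.81-fold.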

How the data were processed

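Total RNA of 4 groups was sequenced as 1 library each, with groups taken from the labels. The submitters' processing notes name HISAT2, HTSeq, DESeq and Cufflinks, and as builds hg38 and GRCh38.p5. No version, role or strand setting of these is given in the sources used here. As deposited, the authors' Ca1a values are whole read counts, headed base mean per the file headers. The MDA-MB-231 values were deposited as a signal, that is reads over the library's size factor, under the same headers; all were whole multiples of 1 step per library (tolerance 1e-06), and the multiples were taken as reads. The deposited fold ratio and log2 fold change columns, per the file headers the authors' own, were not used, and the authors' p-value columns were copied and not recomputed. The third deposited table holds the authors' FPKM of all 4 libraries, whose denominator no source here gives. No per-sample column was left unmapped (0).

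Conditions were not tested against each other, since a group has 1 library. Ratios of normalized counts carry exact conditional binomial (Clopper-Pearson) 95% intervals, for genes with a mean of at least 20; a gene is higher or lower beyond counting error where the interval leaves out 1. Reads without molecular identifiers are not independent molecules, and intervals cover counting error only. Depth was 20673373 to 21405193 reads. Medians are on log2(value + 1), and printed ratios have no pseudocount. The scripts were checked on simulated counts.

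The members and lists were chosen with earlier results of these data known. All 39 members are accounted for. Named in full were, per comparison, the 2 of each role with the largest ratio in either direction, E2F1, those at least 1.2-fold apart, and up to 3 per other list (1 of these is not reported here); further members, the motif split, genes in the count range, and the pairs of subunits were chosen after values were seen. Promoter windows are RefSeq's (GRCh38.p14), matched by symbol for 34 of 39 members. Exons come from GENCODE release 29 (GRCh38), matched by Entrez ID for all 39. Alternatives were FPKM, other scalings, pseudocounts of 0.5 and 5, filters on the mean, thresholds of 1.2-, 1.5- and 2-fold and, added after seeing the data, a motif window of the 250 bases before the start alone. TMM factors came from edgeR 4.0.16 (R 4.3.3), and the rest from scipy 1.17.1, pandas 2.3.3, numpy 2.4.6 and matplotlib 3.10.9 under python 3.11.15.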

Additional observations from a re-analysis of the deposited data

Results flagged for a closer look

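MCM7 and TYMS were called in opposite directions in the 2 comparisons, lower in the knockdown library and higher in the overexpression library. The log2 ratio of overexpression minus that of knockdown was 0.20 for MCM7 and 0.56 for TYMS. The difference was not tested, since each group has 1 library, and the comparisons also differ in cell line, medium and vector. Opposite calls were not counted over all genes, so no background share stands beside these 2 genes. ENOSF1, which overlaps TYMS on the opposite strand, had the same directions, and its part in the TYMS values was not tested.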

How the results depend on the processing

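In the knockdown comparison, 4 replication genes were higher and 5 lower as deposited. With a threshold of 1.2-, 1.5- or 2-fold both counts were 0. Scaled by total reads, the counts of higher and lower genes were 2 and 10. That scaling lowers the knockdown ratio of every gene by the same factor, in the replication set or not. No share of all genes under it is given here, so the 10 cannot be set against a background. In the overexpression comparison the counts of 13 and 2 became 7 and 0 at 1.2-fold and 0 and 0 at 1.5- and 2-fold. The median log2 ratio of the replication genes kept its sign under every setting tried, in both comparisons. Between the controls their median log2 ratio of 1.48 became 1.12 with TMM-scaled reads, where the median of all genes was -0.0067. The count of genes at least 2-fold higher also depends on scaling. Divided by the all-gene median ratio of 1.25, GINS3 (1.64), PRIM1 (1.86), RFC3 (1.74), RPA1 (1.92) and RRM1 (1.69) fell under 2-fold.

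For the 99 further genes in the knockdown comparison, 15 higher became 8 with total reads, and 15 and 15 became 0 and 2 at 1.2-fold and 0 and 0 at 1.5- and 2-fold. Their median of 0.0046 was -0.0060 by FPKM, -0.028 with total reads, -0.0084 with TMM and -0.0079 with the median gene. In the overexpression comparison their 7 lower genes became 12 with TMM and 11 with the median gene, and 23 and 7 became 3 and 2 at 1.2-fold and 0 and 0 at 1.5- and 2-fold. Their median of 0.03 was -0.012 by FPKM. The cause of these shifts was not tested, and no share of all genes under these scalings is given beside them.

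A mean of at least 100 leaves out POLE2 in Ca1a. Leaving out a replicate was not possible with 1 library a group. No paired analysis was possible because each group holds 1 library and no test was made.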
